A study of Mus musculus with 6 samples.

Results

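Myelinating Schwann cells, the glia that wrap single axons of peripheral nerves in myelin, were looked for in 5 autonomic ganglia of mouse pups by UMIs (unique molecular identifiers, 1 per captured RNA molecule) of 3 genes, *Mag*, *Prx* and *Ncmap*. Droplets with more than 1500 but fewer than 11000 genes were retained if mitochondrial genes took less than 15% of their UMIs. A droplet was taken as non-neuronal if its mean of ln(1 + UMIs per 10000) over the neuronal genes *Stmn2*, *Stmn3*, *Gap43* and *Tubb3* stayed at or under a set limit (the highest among members was 2.58). Members were then chosen by their UMIs of *Mag*, *Prx* and *Ncmap*, with at least 1 UMI in 2 or more of the 3 genes. The rule found 233 droplets among 13800 non-neuronal and 21442 retained droplets, and these are called myelin-gene droplets below. They held a median of 9918 UMIs. The label of a myelinating Schwann cell held for a minority of them. Of the 233 droplets, 52 carried at least 2 of 4 further genes of Schwann cell myelin and nodes, *Pmp2*, *Drp2*, *Gldn* and *Cldn19*, a grading chosen after values were seen, and 147 carried none of the 4. The members are therefore described as a range of droplets, graded by these 4 genes, and not as 1 cell type.

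All pups were of postnatal day 5 and of both sexes, and carried a Cre transgene together with RosatdT, a reporter at the Rosa locus from which Cre switches on tdTomato. No group differed in genotype or treatment, and the groups are the ganglia. Expression was measured by droplet-based single-cell RNA sequencing, with 39353313 to 113352559 UMIs in 2111 to 11122 deposited droplets per library. Round 1 used version 2 of the chemistry and gave a stellate, a sphenopalatine and a pelvic library (pelvic_1). Round 2 used version 3 and gave a coeliac and a lumbar library and another one of the pelvic ganglion (pelvic_2). Nerves leaving the ganglia were cut at dissection and cells were passed through a density gradient, and glia of the nerves themselves were therefore sampled only as far as they stayed with a ganglion. Only the pelvic ganglion had 2 libraries and the number of pups per library is not given in the sources used here, so ganglia are compared without a test. Round 2 droplets were deeper, with medians of 14159, 18528.5 and 16104 UMIs per retained droplet in the coeliac, lumbar and pelvic_2 libraries, against 5814, 10681 and 6304 in the stellate, sphenopalatine and pelvic_1 libraries. Cell barcodes were shared by at most 94 deposited droplets of any 2 libraries, and by 0 myelin-gene droplets.

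As background, Schwann cells that sort and wrap axons pass through a promyelin stage that depends on SOX10 and POU3F1, and then switch on EGR2, which with SOX10 drives the genes of myelin proteins and of lipid synthesis. Immature and non-myelinating Schwann cells and the satellite glia around neuronal cell bodies keep adhesion molecules such as NCAM1 and L1CAM and the lipid carriers FABP7 and APOE, which myelinating cells lose. In autonomic ganglia most glia are satellite cells and non-myelinating Schwann cells, and myelinating cells accompany the few thicker axons that pass through.

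The 3 genes of the rule encode MAG, an adhesion molecule of the myelin layer next to the axon, periaxin (*Prx*), a scaffold that links the Schwann cell surface to dystrophin-related protein 2, and NCMAP, a membrane protein of noncompact myelin. *Mag* had a UMI in 220 of the 233 droplets, *Prx* in 229 and *Ncmap* in 69. Members with *Mag* and *Prx* but no *Ncmap* numbered 164, against 4 with *Mag* and *Ncmap*, 13 with *Prx* and *Ncmap* and 52 with all 3 genes. In 95 members the 3 genes together gave exactly 2 UMIs, the least the rule accepts. *Ncmap* was the least common of the 3 genes and the one that went with the strongest myelin expression. The share of members with *Ncmap* was 36.4% in the stellate, 57.1% in the sphenopalatine and 41.7% in pelvic_1, against 7.50% in the coeliac, 13.6% in the lumbar and 21.7% in pelvic_2.

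The 250 bases before a RefSeq start of the 3 rule genes and of the grading genes *Cldn19* and *Gldn* are shown because the choice of droplets and their grading rest on these genes. They are credited to RefSeq on GRCm38.p6, and 5 of 7 myelin genes looked up there were matched. The windows are chr7:30914864-30915113 on the minus strand for *Mag*, chr7:27499074-27499323 on the plus strand for *Prx*, chr4:135398228-135398477 on the minus strand for *Ncmap*, chr4:119255191-119255440 on the plus strand for *Cldn19* and chr9:54286236-54286485 on the plus strand for *Gldn*. Each is printed 5′ to 3′ and ends at the base before the start that the table lists first. RefSeq lists 3 starts for *Mag* and 2 each for *Ncmap* and *Cldn19*, and the last 10 bases of the *Mag* window and the last 27 of the *Cldn19* window lie inside the gene as GENCODE draws it. Capitals mark a SOX core (ACAAAG or its other strand CTTTGT) or an EGR core (GTGGGCG or its other strand CGCCCAC).
Mag: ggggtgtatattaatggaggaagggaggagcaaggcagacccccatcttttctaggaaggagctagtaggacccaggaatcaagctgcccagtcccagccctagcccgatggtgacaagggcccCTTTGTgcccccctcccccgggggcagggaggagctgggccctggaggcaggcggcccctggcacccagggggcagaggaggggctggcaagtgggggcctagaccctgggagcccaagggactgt
Prx: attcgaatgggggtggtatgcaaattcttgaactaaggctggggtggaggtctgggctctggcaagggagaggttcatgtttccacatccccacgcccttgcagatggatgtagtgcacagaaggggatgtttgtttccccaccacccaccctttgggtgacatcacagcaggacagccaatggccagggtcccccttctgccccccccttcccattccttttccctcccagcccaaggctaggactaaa
Ncmap: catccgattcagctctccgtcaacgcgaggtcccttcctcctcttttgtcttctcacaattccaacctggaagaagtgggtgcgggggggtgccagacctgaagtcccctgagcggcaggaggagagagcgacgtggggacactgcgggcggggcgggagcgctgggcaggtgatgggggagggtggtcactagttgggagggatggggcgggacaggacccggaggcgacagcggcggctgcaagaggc
Cldn19: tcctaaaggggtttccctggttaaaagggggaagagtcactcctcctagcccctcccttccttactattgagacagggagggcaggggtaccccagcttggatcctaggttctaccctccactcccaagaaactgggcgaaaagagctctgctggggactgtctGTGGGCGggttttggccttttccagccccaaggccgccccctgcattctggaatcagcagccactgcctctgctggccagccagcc
Gldn: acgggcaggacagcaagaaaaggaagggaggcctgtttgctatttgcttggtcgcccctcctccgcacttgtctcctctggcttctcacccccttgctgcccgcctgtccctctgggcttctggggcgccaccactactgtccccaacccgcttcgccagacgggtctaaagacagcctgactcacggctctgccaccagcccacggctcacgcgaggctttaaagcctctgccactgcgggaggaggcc
The *Mag* window held 1 SOX core, beginning 126 bases before the start used, and the *Cldn19* window held 1 EGR core, beginning 86 bases before the start used. The *Prx*, *Ncmap* and *Gldn* windows held neither set of letters. Among 32851 promoter windows of the same length, 16.5% held the SOX core and 7.02% the EGR core, so each match is a description of letters and not of a bound site.

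*Mbp*, which encodes the basic protein that holds the inner faces of the myelin membrane together, spread over a wide range among the myelin-gene droplets of every library. Among the 11 stellate members *Mbp* ran from 0 through a median of 11.6 to 359 UMIs per 10000, and 3 of them had at least 100. Among the 28 sphenopalatine members it ran from 0 through 60.3 to 504, with 13 at 100 or more. In pelvic_1, with 72 members, the median was 35.3 and the highest value 698, with 24 droplets at 100 or more. High droplets thus made up the largest share of a library's members in the sphenopalatine, while pelvic_1 held the most by number. In round 2 the medians were 9.23 in 40 coeliac, 13.6 in 22 lumbar and 11.1 in 60 pelvic_2 members, with 1, 2 and 7 droplets at 100 or more. *Mbp* was at 0 in 8 members, all of which carried fewer than 2 of *Pmp2*, *Drp2*, *Gldn* and *Cldn19*.

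**Figure D1:**
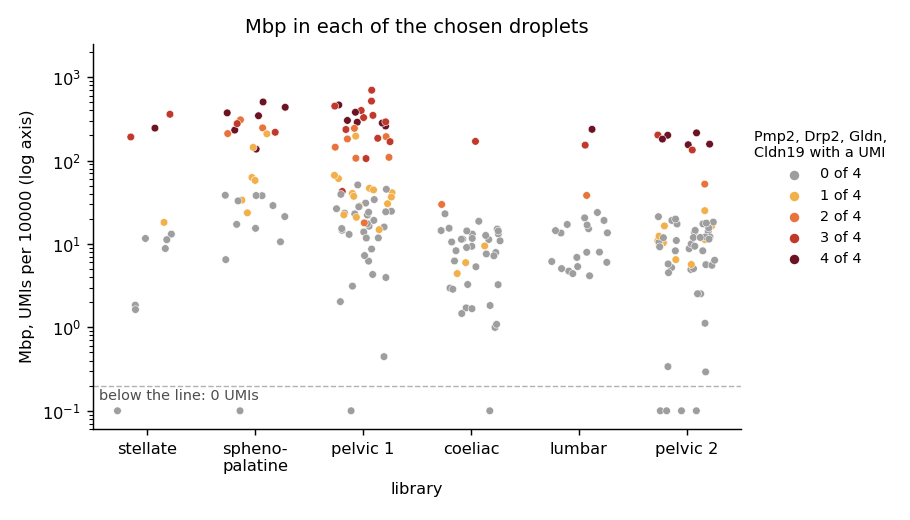
*Mbp* UMIs per 10000 (log axis) in each of the 233 myelin-gene droplets, by library, coloured by how many of *Pmp2*, *Drp2*, *Gldn* and *Cldn19* had a UMI; points under the dashed line had 0 UMIs. The highest value of every library belongs to a droplet with 3 or 4 of the 4 genes, and most coeliac, lumbar and pelvic_2 droplets carry 0 of 4 and sit below 100.

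The number of these 4 genes in a droplet went with the level of the other myelin genes, which the grading did not use. Droplets with 0, 1, 2, 3 and 4 of the genes numbered 147, 34, 13, 20 and 19. Summed over droplets, *Mbp* was at 828, 2863, 12737, 25141 and 26475 CPM (UMIs of a gene per 1000000 UMIs of the droplets summed) in this order, against 715 in the other glia of the ganglia. *Pmp22*, which encodes a 4-span protein of compact myelin, was at 787, 2115, 9047, 22052 and 28769 CPM, against 750. With 0 of 4 both pooled levels were near those of other glia, but the median droplet held 11.3 UMIs per 10000 of *Mbp* against 6.47 in other glia, and 9.62 of *Pmp22* against 7.07. Within libraries, *Mbp* in members with fewer than 2 of the 4 genes was at 752, 4193, 2452, 715, 1041 and 669 CPM in the stellate, sphenopalatine, pelvic_1, coeliac, lumbar and pelvic_2, in each above the other glia of that library, which were at 644, 1345, 1197, 424, 416 and 594 CPM. This group includes the 34 droplets with 1 of 4, which were at 2863 CPM when pooled. It therefore does not show that droplets with 0 of 4 lay above other glia in each library. *Emid1* was at 9.55, 153, 883, 1302 and 1551 CPM, against 3.77 in other glia, and so lay above them in every step. *Mal*, which encodes a membrane protein of myelin, followed this order less closely, with 847, 983, 942, 2407 and 4091 CPM against 702. These values pool the libraries, which are not equally represented in each step, and they are given as a description with no test.

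Along the same steps the transcription factor *Pou3f1*, of the promyelin stage, was high from 1 of 4 genes onwards. It was at 39.2 CPM with 0 of 4 genes, 880 with 1, 2153 with 2, 847 with 3 and 549 with 4, against 12.0 in other glia. The value at 0 of 4 rests in part on 1 lumbar droplet, which held 34.5 UMIs per 10000. No stellate or sphenopalatine droplet of that step held a UMI of *Pou3f1*, so its place above other glia holds for the pooled value only. The value at 2 of 4 rests largely on 2 of 13 droplets, which held 60.9 and 43.2 UMIs per 10000. The median droplet held 0, 6.01, 3.91, 5.46 and 3.60 UMIs per 10000 in the 5 steps, so that the steps from 1 to 4 are not put in order. *Egr2*, which encodes the master factor of myelination, ran through 101, 196, 308, 274 and 190 CPM, against 87.2. *Sox10*, which encodes a factor shared by all glia of peripheral nerves, was at 220, 296, 268, 196 and 173 CPM, against 322 in other glia, which were chosen in part by a UMI of *Sox10*, so that nothing is read from that difference. *Fabp7* and *Apoe*, genes of other glia, went the opposite way. *Fabp7* was at 1496, 933, 19.8, 36.2 and 34.6 CPM, against 6413, and *Apoe* at 6954, 5748, 1309, 150 and 77.8 CPM, against 16041. *Scn7a*, which encodes a sodium channel of non-myelinating Schwann cells, was at 349 CPM with 0 of 4 genes, against 124 in other glia, and at 81.9 with 1 and 5.17 with 3, and it was at 0 with 2 and with 4. In the stellate, sphenopalatine, pelvic_1, coeliac, lumbar and pelvic_2 libraries, members with fewer than 2 of the 4 genes had *Scn7a* at 0, 40.9, 105, 543, 521 and 231 CPM, against 48.1, 33.6, 67.5, 256, 117 and 173 in other glia, higher in all but the stellate, although in the sphenopalatine the value rests on 4 UMIs and its exact Poisson 95% interval (11.1 to 105) holds that of other glia. *Ngfr*, which encodes the p75 neurotrophin receptor, was at 127 and 142 CPM with 0 and 1 of 4 genes, against 79.2, and at 0, 15.5 and 8.64 CPM in the further steps. With fewer than 2 of the 4 genes it was at 215, 184, 124, 123, 103 and 130 CPM by library, against 53.6, 91.7, 139, 64.6, 44.6 and 118, higher in all but pelvic_1, with other glia inside the interval in both pelvic libraries (85.6 to 175 and 109 to 154). The libraries give unequal numbers to each step, and these differences were not tested.

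**Figure D2:**
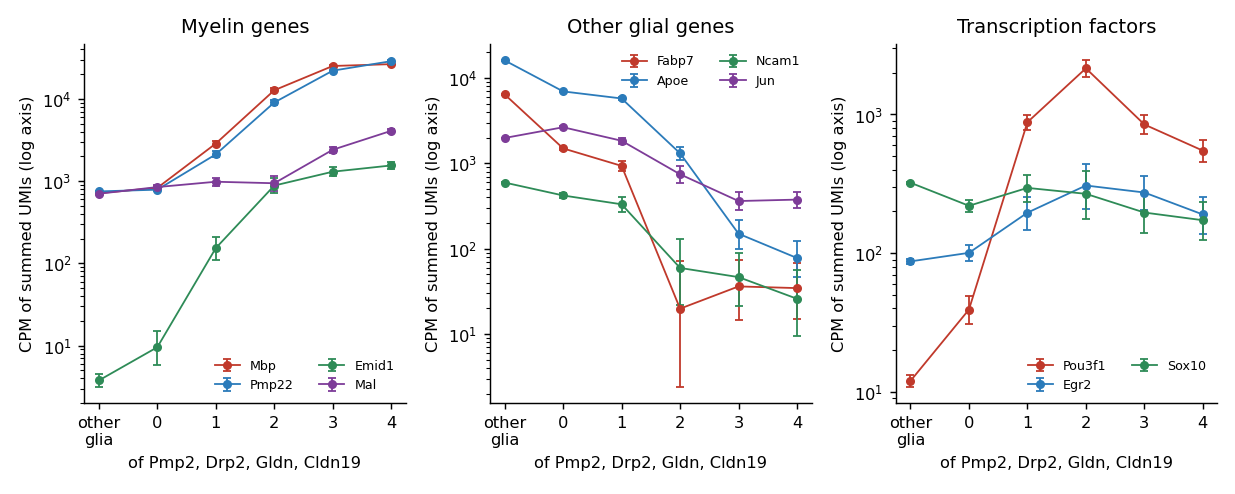
CPM of summed UMIs (log axes, which differ between panels) in other glia and in myelin-gene droplets that carried 0 to 4 of *Pmp2*, *Drp2*, *Gldn* and *Cldn19*; bars are exact 95% Poisson intervals and cover counting error only. *Mbp*, *Pmp22* and *Emid1* climb from step to step while *Fabp7*, *Apoe* and *Ncam1* are low from 2 of 4 onwards. Pooled over libraries, *Pou3f1* is above other glia in every step. Its value at 0 of 4 rests in part on 1 lumbar droplet, and its peak at 2 of 4 largely on 2 droplets.

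On either side of the rule, *Mbp* changed most where the third gene was present. Among droplets that carried at least 1 UMI in 2 of the glial genes *Sox10*, *Ttyh1* and *Cdh19*, *Mbp* was at 715 CPM in 4796 droplets with 0 of the 3 rule genes, at 831 in 917 droplets with 1, just outside the rule, and at 1271 in 141 droplets with 2, just inside it. In 32 such droplets with all 3 genes it was at 21828 CPM. *Fabp7* in the same 4 steps was at 6413, 4070, 1823 and 32.0 CPM. Depth differed along these steps, with medians of 4927, 9151, 11564 and 10727 UMIs. These medians and levels pool libraries of unlike depth, and the mix of libraries differed by step. The stellate, of low depth, gave 1360 of the 4796 droplets with 0 of the genes but 87 of the 917 with 1. A droplet with more UMIs has more chances to show 1 UMI of a gene, and the part of depth in the choice of droplets is given with the shares below. The 4796 glial droplets with 0 of the 3 genes are the other glia that serve as the comparison throughout, and 1 of them carried at least 2 of *Pmp2*, *Drp2*, *Gldn* and *Cldn19*.

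A single UMI of each rule gene was in some other lineage about as common as in glia or more common. *Prx* had a UMI in 15.2% of 3038 fibroblast droplets, with a median of 8377 UMIs, against 9.82% of 5886 glial droplets, with a median of 5371.5, and in 8.61% of endothelial, 6.75% of mural and 1.54% of macrophage droplets. *Mag* had one in 10.0% of 520 macrophage droplets against 11.2% of glial droplets, but in 0.494% of fibroblast, 0.430% of endothelial and 0.734% of mural droplets. *Ncmap* had one in 3.44% of endothelial droplets, with a median of 12173 UMIs, and in 1.17% of mural droplets, against 0.968% of glial droplets. It had one in 0.592% of fibroblast and 0.385% of macrophage droplets. The rule of 2 genes was met by 0.263% of fibroblast droplets, 0.574% of 697 endothelial, 0.587% of 681 mural and 0.192% of macrophage droplets, against 2.94% of glial droplets (173 of 5886, Wilson 95% interval 2.54% to 3.40%, counting error only). With every droplet thinned to 2000 UMIs, which all retained droplets reached, these shares were 0.0329%, 0%, 0%, 0.192% and 0.782%. With the limit of 3 counts that a 0 allows, 0 of 697 endothelial droplets allows a share of up to 0.430%, and 0 of 681 mural droplets up to 0.441%.

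RNA of other cell types was present in part of the myelin-gene droplets. Of the 233, 58 carried 2 or more markers of another lineage, which is 24.9% against 8.07% of other glia, and 13 carried 3 or more with fewer than 2 glial genes and so fell in the droplets of that lineage. The classes are unlike by construction, since other glia had to carry 2 glial genes, as only 173 of the 233 members did. Of these 173 members, 37 (21.4%) carried 2 or more such markers. Members were also deeper, with a pooled median of 9918 UMIs against 4927. Within the stellate, sphenopalatine, pelvic_1, coeliac, lumbar and pelvic_2 the medians lay closer, at 4532, 5916, 5809, 13555.5, 10861 and 14152 against 3622, 4795, 4190, 11949, 10418 and 11718. Of the 13 droplets that fell in another lineage, 8 were fibroblast droplets, 4 endothelial, 4 mural and 1 macrophage, some of them in more than 1 lineage. All 4 endothelial markers tested, *Pecam1*, *Cdh5*, *Kdr* and *Cldn5*, were higher in myelin-gene droplets than in other glia (adjusted p from 9.9e-06 to 0.041). Their summed level was 19.4, 108, 107, 241, 19.0 and 536 CPM in the stellate, sphenopalatine, pelvic_1, coeliac, lumbar and pelvic_2 members, against 64.3, 7.15, 47.0, 13.9, 1.77 and 4.82 CPM in other glia, and so lower in the stellate and higher in the other 5. It was led in the members by *Pecam1* or *Kdr* except for *Cdh5* in the coeliac, and *Pecam1*, *Cdh5* and *Cldn5* were at 0 in the stellate. Both macrophage markers tested, *C1qa* and *C1qb*, passed as well (adjusted p = 0.029 and 0.047, neither with DESeq2), with a summed level of the 4 macrophage markers of 774 CPM against 47.0 in the stellate and 283 against 2.07 in pelvic_2. In the other 4 libraries the members lay below other glia, at 0 to 10.7 CPM against 3.38 to 31.9, so that these calls rest on 2 libraries. Of the 4 fibroblast markers *Col1a1*, a collagen gene that perineurial and endoneurial cells also express, passed the test, at 558 to 3338 CPM against 197 to 971. *Rgs5* of mural and *Cldn1* of perineurial cells also passed, but *Rgs5* not with DESeq2, without droplets of other lineages, with 2 glial genes or with all 3 rule genes. *Cldn1* did not pass with 2 glial genes, with all 3 rule genes or in round 1, and was not tested in round 2 or without droplets of other lineages. Neither *Hbb-bs* nor *Hba-a1* of red cells passed over all members. Their summed level was 11071 against 21.7 CPM in the lumbar, with *Hbb-bs* from 3 droplets, 2829 against 1947 in pelvic_1, and lower than other glia in the other 4. Without droplets that carried 2 such markers, which left 168 members in 5 libraries, 16 of 23 myelin genes tested were higher and 4 of 18 immediate early genes, against 3.75% of all genes tested. In members with 2 glial genes the endothelial markers had too few counts to be tested. Each list below is also given for droplets that carried all 3 rule genes, and in those none of the 4 endothelial markers passed the test (edgeR, with 2 of 4 higher at an unadjusted p under 0.05) and *Col1a1* did. The summed level of 10 neuronal markers, 4 of which set the neuronal limit of the rule, was 441 to 2728 CPM against 702 to 3333 in other glia, higher in the sphenopalatine (1695 against 1610) and lower in the other 5. Of 5 neuronal markers tested that set no limit, 0 were higher (edgeR and DESeq2, 0 also at an unadjusted p under 0.05), and *Chat* was at 0 in the members of every library. Markers of oligodendrocytes, the myelinating cells of the central nervous system, were at or near 0. *Mog*, *Opalin*, *Hapln2*, *Olig1* and *Olig2* were at 0 in the members of every library, and *Mobp* was at 3.37 CPM in pelvic_2 and at 0 in the others.

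The share of myelin-gene droplets differed between libraries, and bringing all droplets to 1 depth changed the order. They made up 0.260% of 4234 non-neuronal droplets in the stellate (Wilson 95% interval 0.145% to 0.465%), 1.08% of 2595 in the sphenopalatine (0.748% to 1.56%) and 2.13% of 3383 in pelvic_1 (1.69% to 2.67%). In round 2 they made up 3.40% of 1175 in the coeliac (2.51% to 4.60%), 1.89% of 1166 in the lumbar (1.25% to 2.84%) and 4.81% of 1247 in pelvic_2 (3.76% to 6.14%). The 2 pelvic libraries thus differed by more than their counting intervals, with a mean of 3.47% ± 1.90 (SD, n = 2). Thinned to 2000 UMIs per droplet, the rule was met by 0.0945% in the stellate, 0.617% in the sphenopalatine, 0.916% in pelvic_1, 0.340% in the coeliac, 0.429% in the lumbar and 0.802% in pelvic_2. At this equal depth the 2 pelvic libraries came to 0.859% ± 0.0809 (SD, n = 2), and the coeliac fell from the second to the fifth place. Droplets with all 3 genes made up 0.0709%, 0.501%, 0.680%, 0.170%, 0.257% and 0.642% in the same order of libraries. On both stricter counts the order was pelvic, sphenopalatine, lumbar, coeliac and stellate. The intervals of neighbours in this order overlapped, and ganglia were not tested against each other, since only the pelvic had 2 libraries and these came from different rounds. The amount of nerve left on each ganglion is not given in the sources used here, so that fewer of these cells in a ganglion and less nerve left on it cannot be told apart.

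**Figure D3:**
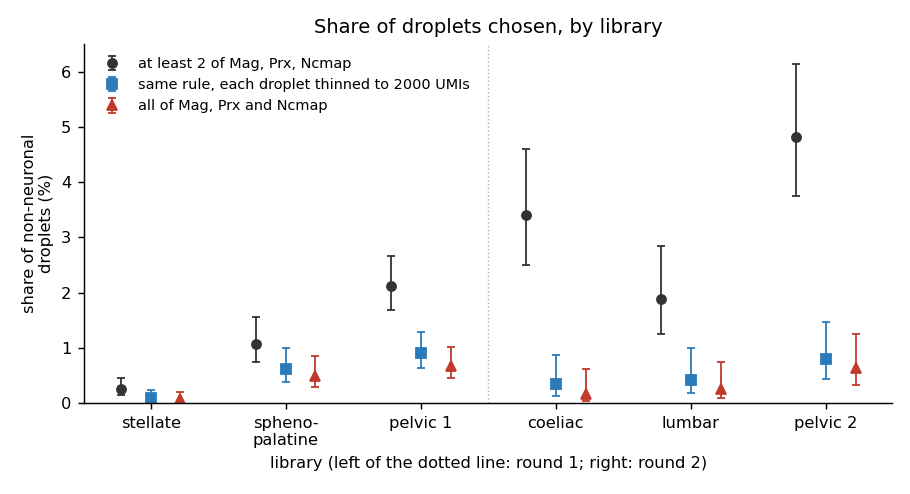
Share of non-neuronal droplets (%) per library that met the rule, that met it after thinning each droplet to 2000 UMIs, and that carried all 3 genes; bars are Wilson 95% intervals. The unthinned share reaches 4.81% in pelvic_2, whereas the thinned and the 3-gene shares stay below 1% in all 6 libraries and are lowest in the stellate.

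Against the other glia of the same library, most of the tested genes of peripheral myelin were higher in the myelin-gene droplets. UMIs were summed per library and class and tested with edgeR's quasi-likelihood test with the library as a block. Of 11178 genes tested, 9.04% passed an adjusted p of 0.05, 4.47% being higher (500 genes) and 4.57% lower (511 genes) in myelin-gene droplets. DESeq2 called 3.76% higher and 3.07% lower. Of the 26 genes of peripheral myelin and paranode proteins that were tested and not used by the rule, 19 were higher, 7 did not pass the test and 0 were lower (1 lower at an unadjusted p under 0.05, and 0 with DESeq2), with a median log2 fold change of 1.77 against -0.05 over all genes tested. This direction is not independent of the rule, which chose droplets by 3 genes of the same protein class. The list comprised 33 genes, of which 3 were used by the rule and 4 had too few counts to be tested.

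In the order stellate, sphenopalatine, pelvic_1, coeliac, lumbar and pelvic_2, *Mbp* was at 8069, 17148, 13433, 1233, 3322 and 2680 CPM in myelin-gene droplets, against 644, 1345, 1197, 424, 416 and 594 CPM in other glia. The coeliac members were lowest, and they fell below the sphenopalatine other glia although they lay above those of their own library. The log2 fold change was 2.93 (SE 0.20, adjusted p = 7.5e-10). *Pmp22* was at 10353, 14333, 11176, 1387, 3535 and 3164 CPM against 803, 807, 968, 624, 669 and 736, and these groups did not overlap. Its log2 fold change was 2.84 (SE 0.26, adjusted p = 5.4e-08). *Cldn19*, which encodes a claudin of the tight junctions in noncompact myelin, was at 329, 720, 441, 51.6, 171 and 174 CPM against at most 2.90 CPM in any other glia (log2 fold change 8.19, SE 0.26, adjusted p = 6.5e-16). *Emid1*, *Pllp* and *Dusp15* were higher in all 6 libraries as well, with log2 fold changes of 6.44, 6.68 and 6.48. *Pllp* encodes plasmolipin, a membrane protein of myelin. *Gldn*, which encodes gliomedin, the Schwann cell signal that gathers sodium channels at forming nodes, had UMIs in the members of every library, at 12.5 to 126 CPM, and was at 0 in other glia of 5 libraries and at 0.141 CPM in the coeliac. *Drp2*, the partner of periaxin, was at 17.2 to 86.6 CPM against 2.11 to 5.12 (log2 fold change 3.45, SE 0.33, adjusted p = 1.1e-07). *Gpr37l1* did not pass the test, at 119 to 233 CPM against 157 to 332 (log2 fold change -0.15, adjusted p = 0.61), and its direction changed under alternatives.

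**Figure D4:**
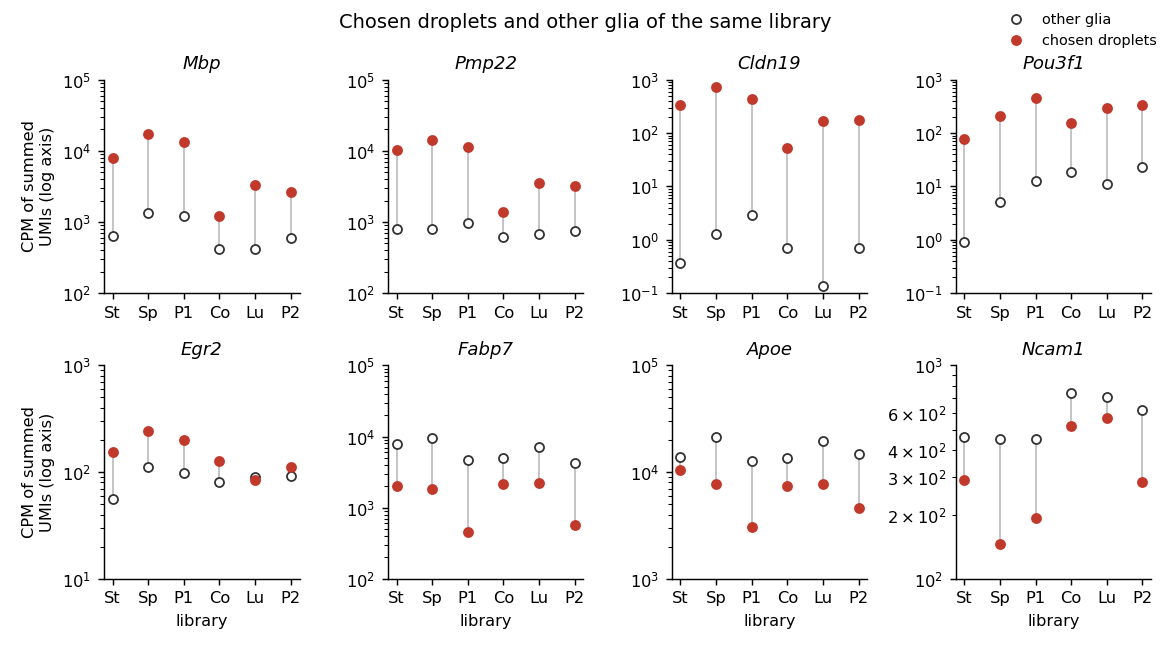
CPM of summed UMIs (log axes) of 8 genes in myelin-gene droplets (filled) and other glia (open) of the same library, with stellate (St), sphenopalatine (Sp), pelvic_1 (P1), coeliac (Co), lumbar (Lu) and pelvic_2 (P2). *Mbp*, *Pmp22*, *Cldn19* and *Pou3f1* are higher and *Fabp7*, *Apoe* and *Ncam1* lower in the myelin-gene droplets of all 6 libraries, and *Egr2* is higher in 5 of 6.

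The difference between libraries in these levels went with the share of strongly positive droplets in each. Members with at least 2 of *Pmp2*, *Drp2*, *Gldn* and *Cldn19* numbered 3 of 11 in the stellate, 11 of 28 in the sphenopalatine, 25 of 72 in pelvic_1, 2 of 40 in the coeliac, 3 of 22 in the lumbar and 8 of 60 in pelvic_2. The highest library exceeded the lowest 13.9-fold for *Mbp* and 10.3-fold for *Pmp22* over all members. Among droplets with all 3 rule genes these ratios were 2.73 and 2.86. *Mbp* in members with at least 2 of the 4 genes was at 26904, 31725, 27751, 11094, 16127 and 16673 CPM in the order of libraries above, and the lowest of these, from 2 coeliac droplets, lay above *Mbp* over all members of the stellate, lumbar and pelvic_2 libraries.

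The same comparison was made for droplets with all 3 rule genes in the libraries that held at least 10 of them, the sphenopalatine and pelvic_1, with 36 such droplets against 1857 other glia. With 2 libraries the spread of a gene rests largely on that shared by all genes, so its p-values are less certain than those of the 6 libraries. Of 10843 genes tested, 4.16% were higher and 5.99% lower. The myelin list had 22 of 28 genes higher and 1, *Tspan2*, lower. When the rule was instead applied to droplets thinned to 2000 UMIs, with 57 droplets of the sphenopalatine, pelvic_1 and pelvic_2 against 1197 other glia, 8.24% of 9003 genes were higher and 9.44% lower, and the list had 22 of 28 genes higher and 1, *Cntn1*, lower. *Pmp2*, which encodes a fatty acid binding protein of compact myelin, had 75 and 315 UMIs in the sphenopalatine and pelvic_1 droplets with all 3 genes, against 1 and 0 UMIs in other glia that held far more UMIs in all. *Pmp22* had a log2 fold change of 4.93 (SE 0.24) and *Mbp* of 4.59 (SE 0.23) in the droplets with all 3 genes.

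Of 25 transcription factors of the promyelin and myelin programme and its repressors, 3 were higher and 5 lower in myelin-gene droplets over 6 libraries. Of all genes tested, 4.47% were higher and 4.57% lower, and these shares stand beside each list below over all members. *Pou3f1* was at 77.4, 206, 456, 152, 301 and 337 CPM against 0.921, 5.05, 12.5, 18.9, 10.9 and 23.4 CPM in other glia of the same order of libraries. The groups did not overlap (log2 fold change 4.39, SE 0.25, adjusted p = 1.9e-11). *Egr2* was at 155, 244, 200, 128, 83.8 and 111 CPM against 56.4, 111, 98.5, 80.8, 90.5 and 92.8, higher in 5 of 6 libraries and lower in the lumbar (log2 fold change 0.70, SE 0.16, adjusted p = 0.0052). Within round 2 it did not pass (log2 fold change 0.36, adjusted p = 0.23). *Ets1*, a factor that endothelial cells express strongly, was the third gene higher, though neither in round 1, nor without droplets of other lineages, nor with all 3 rule genes or at 2000 UMIs. It did pass with DESeq2, in round 2 and for members with 2 glial genes. Without droplets of other lineages 4 factors were higher (*Pou3f1*, *Tead1*, *Egr2* and *Id2*) and 4 lower. For members with 2 glial genes 5 were higher, the same 4 and *Ets1*, and 3 lower. Of all genes tested in these 2 comparisons, 3.75% and 3.61% were higher and 2.96% and 3.36% lower, which also applies to the lists below. Lower were *Hey2*, a target of Notch signalling, *Tfap2a*, a neural crest factor, *Pou3f2*, *Sox2*, which holds Schwann cells immature, and *Notch1*, of which *Sox2* and *Notch1* did not pass with DESeq2. *Sox2* also stands on the list of non-myelinating genes below and counts in both. *Hey2* fell in all 6 libraries, from 131 to 206 CPM in other glia to 6.40 to 81.2 CPM (log2 fold change -2.03, SE 0.23, adjusted p = 2e-06). *Jun*, which opposes myelination, did not pass the test over all members, at 580 to 3051 CPM against 913 to 3250 (log2 fold change -0.24, adjusted p = 0.25). In droplets with all 3 rule genes it was lower, at 435 and 443 CPM against 1253 and 1044 (log2 fold change -1.24, SE 0.22, adjusted p = 4.99e-07). Those droplets had *Pou3f1*, *Egr2* and *Nab2*, a co-regulator of EGR proteins, higher and 7 factors lower. Of the 5 factors lower over all members, *Hey2* and *Notch1* were among the 7 and *Tfap2a*, *Sox2* and *Pou3f2* were not, the last with a log2 fold change of 0.28, opposite to its direction over all members. *Sox10*, which helped to choose the comparison glia, is given with no test and was at 186 and 164 CPM against 352 and 332.

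Genes of cholesterol and lipid synthesis did not move together over all members, with 5 of 35 higher and 8 lower. The 8 became 5 with DESeq2, without *Scd2*, *Sc5d* and *Scd1*, 4 for members with 2 glial genes and 3 without droplets of other lineages (*Fads2*, *Elovl5* and *Dhcr7*), while 5 were higher in each. *Ugt8a*, which encodes the enzyme that makes galactosylceramide, a major myelin lipid, was at 76.6 to 217 CPM against 8.83 to 27.3 with a log2 fold change of 3.03 (SE 0.22, adjusted p = 1.2e-09). *Elovl1* and *Elovl7*, which lengthen fatty acids, *Gal3st1*, which makes sulfatide, and *Cers2*, which makes ceramides with very long chains, were higher in all 6 libraries, though *Elovl7* did not pass without droplets of other lineages and *Cers2* did not in round 2. The lower genes, mostly of desaturation and sterol steps, included *Fads2*, *Elovl5*, *Dhcr7*, *Srebf1*, *Scd2*, *Sc5d* and *Scd1*. *Hmgcs1*, which encodes an early enzyme of sterol synthesis, was at 832, 666, 625, 598, 625 and 527 CPM against 804, 509, 695, 827, 1009 and 991, higher in the stellate and the sphenopalatine and lower in the other 4 (log2 fold change -0.32, SE 0.14, adjusted p = 0.17). Within round 1, 9 genes of the list were higher and 2 lower, against 3.27% and 3.4% of all genes tested there, and within round 2, 4 were higher and 13 lower, against 3.71% and 2.55%. Droplets with all 3 rule genes had 12 of 35 higher and 3 lower, and the higher genes included *Ugt8a*, *Elovl1*, *Gal3st1*, *Elovl6*, *Idi1*, *Elovl7*, *Cers2*, *Fdps*, *Hmgcs1* and *Cyp51*. In these *Hmgcs1* was at 880 and 881 CPM against 509 and 695 (log2 fold change 0.67, SE 0.20, adjusted p = 0.012). By the rule at 2000 UMIs, 18 of 35 were higher and 3 lower. *Elovl5*, *Fads2* and *Srebf1* were the 3 lower genes in both stricter comparisons.

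Receptors and adhesion molecules through which Schwann cells meet axons and the basal lamina were divided, with 4 of 24 higher and 4 lower. *Itga6*, which encodes a laminin receptor subunit, was at 194, 352, 318, 583, 766 and 719 CPM against 126, 172, 200, 325, 289 and 440, higher in every library (log2 fold change 0.92, SE 0.12, adjusted p = 1.1e-05). *Utrn*, which encodes utrophin of the dystroglycan complex, had a log2 fold change of 1.30 (SE 0.17, adjusted p = 1.1e-05). *Ntrk3* and *Cadm3* were also higher, *Ntrk3* not in round 1 and *Cadm3* not with DESeq2, with 2 glial genes or in round 2. *Ntrk2*, *Sgce*, *Cadm1* and *Adgrg6* were lower, the last of which encodes GPR126, a receptor that starts myelination, at 40.5 to 183 CPM against 91.8 to 212 (log2 fold change -0.55, SE 0.16, adjusted p = 0.033). The *Adgrg6* call was lost with DESeq2 (adjusted p = 0.10), without droplets of other lineages (0.23), with 2 glial genes (0.35), in round 2 (0.31) and without the stellate, the sphenopalatine or either pelvic library (0.070 to 0.19). *Cadm1* passed neither without droplets of other lineages, nor with 2 glial genes, nor in round 2. *Erbb2* and *Erbb3*, which encode the neuregulin receptor, did not pass the test, with log2 fold changes of 0.09 (SE 0.22) and -0.33 (SE 0.14). In droplets with all 3 rule genes *Utrn*, *Dag1*, *Cadm3* and *Itga6* were higher and *Cadm1*, *Ntrk2*, *Adgrg6* and *Sgce* lower. Both libraries of that comparison are of round 1, and over all members of round 1 these 8 genes passed in the same directions. *Dag1* encodes dystroglycan.

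Of 19 tested genes of non-myelinating Schwann cells and satellite glia, 9 were lower, 10 did not pass the test and 0 were higher (2 higher at an unadjusted p under 0.05, and 1 with DESeq2). Without droplets of other lineages, and likewise for members with 2 glial genes, 7 were lower, without *L1cam* and *Sox2*, and 1, *Scn7a*, was higher, against 2.96% and 3.36% of all genes tested that were lower in these 2 comparisons. *Fabp7* was at 2012, 1803, 452, 2122, 2198 and 565 CPM against 7854, 9494, 4666, 5057, 7019 and 4243, and the groups did not overlap (log2 fold change -2.26, SE 0.17, adjusted p = 4.6e-09). *Apoe* was at 10469, 7667, 3078, 7338, 7696 and 4637 CPM against 12814 to 21255 (log2 fold change -1.31, SE 0.12, adjusted p = 7.9e-08). *Ncam1* was at 146 to 568 CPM against 452 to 746 and lower in all 6 libraries (log2 fold change -0.88, SE 0.13, adjusted p = 7.2e-05), and *Sostdc1*, *Ptn*, *Ednrb*, *Cdh2*, *L1cam* and *Sox2* completed the 9. Both pelvic libraries held the lowest values of *Fabp7* among the members. *Scn7a* did not pass the test over all members, at 0, 21.7, 61.8, 516, 442 and 202 CPM against 48.1, 33.6, 67.5, 256, 117 and 173, below other glia in the 3 libraries of round 1 and above them in the 3 of round 2 (log2 fold change 0.68, adjusted p = 0.061). It was called higher in round 2 (log2 fold change 1.04, adjusted p = 0.0071), without droplets of other lineages (0.99, adjusted p = 0.0006), for members with 2 glial genes (1.10, adjusted p = 2.65e-05), without cycling droplets (0.73, adjusted p = 0.0026), with no filter on low counts (0.55, adjusted p = 0.0056) and without the stellate, the sphenopalatine or either pelvic library (0.77 to 0.81, adjusted p from 0.011 to 0.044). *Ngfr*, a gene of immature and non-myelinating Schwann cells, did not pass either (log2 fold change 0.30, adjusted p = 0.44). In droplets with all 3 rule genes 13 of 19 were lower and 0 higher (0 higher also at an unadjusted p under 0.05). There *Fabp7* had 7 and 4 UMIs in the sphenopalatine and pelvic_1, which is 72.5 and 21.1 CPM against 9494 and 4666 CPM in other glia (log2 fold change -7.24, SE 0.33), and *Apoe* was at 290 and 317 CPM against 21255 and 12814 (log2 fold change -5.58, SE 0.26). *Ngfr* had 0 and 3 UMIs and *Scn7a* 0 and 1. *Gfap* was near 0 in all glia and was not tested.

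Genes of the cell cycle were lower in part, with 8 of 20 lower (3 with DESeq2) and 1, *Mcm5*, higher (0 with DESeq2, 2 there at an unadjusted p under 0.05). The direction differed between rounds. In round 1, 6 were lower and 0 higher (0 higher also at an unadjusted p under 0.05), whereas in round 2, 4 were lower and 7 higher, the 7 being *Mcm5*, *Mcm3*, *Tyms*, *Pcna*, *Rrm2*, *Mcm2* and *Mcm6*, genes of DNA replication. The shares of all genes tested in each round are those given with the lipid genes. Without droplets of other lineages 2 were lower and 0 higher (1 higher at an unadjusted p under 0.05), and for members with 2 glial genes 2 were lower and 2 higher, against 3.36% and 3.61% of all genes tested there. The difference between the rounds was not tested. *Cenpf*, of chromosome segregation, was at 0, 0, 61.8, 175, 133 and 133 CPM against 139, 68.1, 96.3, 248, 325 and 370 (log2 fold change -1.14, SE 0.22, adjusted p = 0.0009), a call lost with DESeq2 (adjusted p = 0.070) and without droplets of other lineages (adjusted p = 0.069). The share of cycling droplets, counted at 2000 UMIs per droplet, averaged 8.49% over libraries among members and 12.5% among other glia, lower in 5 of 6 libraries (difference -4.02 points ± 3.63, SD, exact two-sided permutation over 6 libraries p = 0.094, adjusted over 4 properties 0.125). In the coeliac it was 12.5% against 10.0%. In droplets with all 3 rule genes 18 of 20 genes were lower and 0 higher (0 higher also at an unadjusted p under 0.05), and *Cdk1*, which drives entry into mitosis, had 0 UMIs in both libraries against 351 and 499 in other glia. Droplets with all 3 rule genes numbered 3, 13, 23, 2, 3 and 8 in the order of libraries, and none was counted as cycling, a mean difference of -12.5 points. With 2 or 3 droplets in 3 of the libraries a count of 0 is likely at the share of other glia, so no p is given for it. Of the 52 members with at least 2 of *Pmp2*, *Drp2*, *Gldn* and *Cldn19*, 0 were cycling with all their UMIs, against 38 of all 233 members. Droplets with all 3 rule genes also showed fewer genes at equal depth. At 2000 UMIs they held 127 fewer genes than other glia of their library (1028 against 1155 on average, fewer in 6 of 6, exact two-sided permutation p = 0.031, the smallest that 6 libraries allow, adjusted over 4 properties 0.042), and their share of ribosomal protein UMIs was 1.17 points higher in 6 of 6 libraries with the same p. In 3 of the libraries these values rest on 2 or 3 droplets. The adjusted 0.042 also rests on the p of the cycling share, which is set aside above, so it is not read as passing. Over all members the differences were mixed in sign, at -72, -76.5, -69, 15, 18.5 and -26 genes in the order of libraries. The ribosomal share over all members was higher in every library but the coeliac (-0.2 points).

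Of 18 immediate early genes, which tissue dissociation induces, 7 were higher over all members, 11 did not pass the test and 0 were lower (2 lower at an unadjusted p under 0.05, and 0 with DESeq2). *Ier3* was at 96.8, 43.3, 107, 145, 145 and 331 CPM against 28.4, 33.0, 49.5, 86.0, 59.9 and 121 (log2 fold change 1.14, SE 0.15, adjusted p = 9.7e-06), and *Atf3* at 104 to 975 CPM against 38.1 to 628 (log2 fold change 0.72, SE 0.15, adjusted p = 0.0027). *Klf4*, *Dusp1*, *Klf2*, *Nr4a1* and *Zfp36* were the others. Without droplets of other lineages *Klf4*, *Dusp1* and *Zfp36* did not pass, and with DESeq2 *Klf2* did not. In round 1, 3 were higher (*Dusp1*, *Ier3* and *Klf4*) and 1, *Ier2*, lower, and in round 2, 4 were higher (*Ier3*, *Atf3*, *Klf2* and *Klf4*) and 0 lower (0 also at an unadjusted p under 0.05). The counts turned in strongly positive droplets. With all 3 rule genes, 0 were higher (3 at an unadjusted p under 0.05) and 6 lower, among them *Fos*, a subunit of AP-1, at 1201 and 2111 CPM against 3067 and 3184, and the log2 fold changes of *Ier3* and *Atf3* were -0.32 and -0.53. By the rule at 2000 UMIs, 2 were higher and 9 lower.

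Outside the lists, the genes with the largest rise were *Slc36a2*, *Rasgef1a*, *Kcnk1*, *Ecscr* and *Fam178b*. *Slc36a2*, which encodes an amino acid transporter, was at 271, 184, 162, 10.9, 72.4 and 51.3 CPM and at most at 0.223 CPM in other glia of any library. *Rasgef1a*, an exchange factor for small GTPases, was at 9.37 to 125 CPM against 0.136 to 1.26 (log2 fold change 6.57, SE 0.42, adjusted p = 2.1e-10), and *Kcnk1*, a potassium channel, at 7.81 to 141 CPM against 0.273 to 2.21. All 3 were higher in 6 of 6 libraries. *Ecscr* is known as an endothelial gene, and it was at 28.1 to 137 CPM against 0.409 to 9.36. The 4 endothelial markers above summed to 19.4 CPM in stellate and 19.0 in lumbar members, and to 107 to 536 CPM in the members of the other libraries. Whether the *Ecscr* level came from endothelial RNA was not tested. The largest falls were those of *Ctnnd2*, *Crym*, *Pdpn*, *Slc4a4* and *Catsperz*. *Ctnnd2*, which encodes delta-catenin of adhesion complexes, was at 77.4, 75.8, 10.7, 59.4, 122 and 21.0 CPM against 269, 199, 175, 151, 339 and 181, with no overlap (log2 fold change -2.08, SE 0.23, adjusted p = 9.9e-07). *Crym*, a thyroid hormone binding protein, had the same fold change (SE 0.19, adjusted p = 7e-08).

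Hox genes, which keep the position of a cell along the body axis, were carried by myelin-gene droplets of all ganglia but almost not by those of the sphenopalatine, the only cranial ganglion. The number of 39 Hox genes with a UMI in at least 10% of the members was 1 in the stellate, 0 in the sphenopalatine, 6 in pelvic_1, 9 in the coeliac, 8 in the lumbar and 17 in pelvic_2. At 2000 UMIs it was 1 in the coeliac and 0 in all others, and the order of these numbers is not read. The summed level of all Hox genes was 96.8, 16.2, 269, 208, 179 and 409 CPM in the order stellate, sphenopalatine, pelvic_1, coeliac, lumbar and pelvic_2. Other glia of the same libraries were at 174, 1.47, 490, 180, 245 and 489 CPM. Macrophages, taken as a measure of free RNA from other cells, were at 22.5, 0, 38.5, 39.4, 16.7 and 39.4 CPM. The sphenopalatine value rests on 3 UMIs in 28 members and the stellate value on 5 UMIs in 11.

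Among single Hox genes of posterior limits, *Hoxc10*, *Hoxa9* and *Hoxd9* had UMIs mainly in the pelvic members, and *Hoxb9* did not. *Hoxc10* was at 36.2 CPM in pelvic_1 and 23.6 in pelvic_2 (13 of 72 and 20 of 60 members with a UMI) and at 0 in the members of the other 4 libraries, while other glia of the pelvic libraries were at 48.8 and 43.9 CPM and those of the lumbar at 4.91. *Hoxa9* was at 14.9 and 28.6 CPM in the pelvic libraries, at 1.56 in the coeliac and at 0 in the others. *Hoxd9*, at 27.7 and 18.5 CPM in the pelvic libraries, was at 10.8, 3.12 and 3.81 in the sphenopalatine, coeliac and lumbar members, the first of them from 1 droplet. *Hoxb9* was highest in the coeliac, at 21.9 CPM with a UMI in 10 of 40 members, and at 11.4 in the lumbar, 14.9 in pelvic_1, 14.3 in pelvic_2 and 0 in the other 2. *Hoxb7*, of a more anterior limit, was at 38.7, 0, 23.5, 26.6, 26.7 and 24.4 CPM, and thus in the members of all libraries but the sphenopalatine. *Hoxd8* and *Hoxa7* were at 0 in the stellate and the sphenopalatine and between 21.9 and 50.5 CPM in the other 4, where the lowest of these, *Hoxa7* in the coeliac, came from 14 UMIs in 3 of 40 droplets. With 11 members and 51678 UMIs in all, the stellate could show a gene at 0 that was present at up to 58.1 CPM, the level of 3 counts. Between myelin-gene droplets and other glia, 1 of 13 Hox genes tested was lower, *Hoxc8*, and 0 were higher (1 higher at an unadjusted p under 0.05, and 0 with DESeq2). The *Hoxc8* call was lost with DESeq2, in each round, without droplets of other lineages and for members with 2 glial genes. In droplets with all 3 rule genes 1 of 12 was called lower, *Hoxa7* (log2 fold change -2.72), and *Hoxc8* had too few counts to be tested. *Hoxa7* had 0 UMIs in both the members and the other glia of the sphenopalatine. Its value there thus rests on pelvic_1 alone, with 1 sum per class, and nothing is read from the call.

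**Figure D5:**
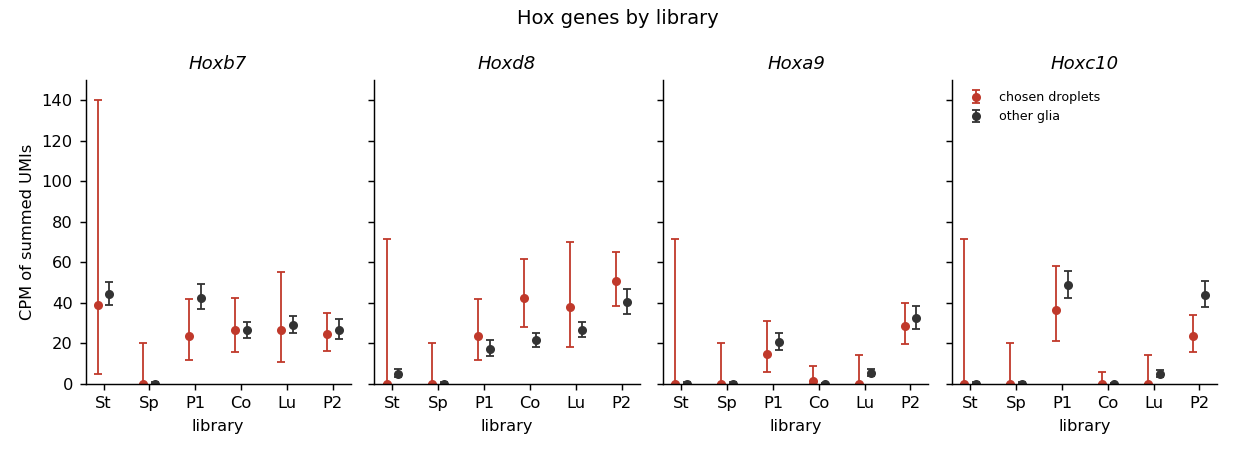
CPM of summed UMIs of *Hoxb7*, *Hoxd8*, *Hoxa9* and *Hoxc10* in myelin-gene droplets (chosen droplets) and other glia of the stellate (St), sphenopalatine (Sp), pelvic_1 (P1), coeliac (Co), lumbar (Lu) and pelvic_2 (P2) libraries, with exact 95% Poisson intervals for counting error only. All 4 genes are at 0 in the sphenopalatine members, and *Hoxc10* has UMIs in the members of the 2 pelvic libraries only.

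Few genes marked the myelin-gene droplets of 1 ganglion by size, taken as at least 50 CPM, 4-fold above every library of every other ganglion and 2-fold above droplets of other lineages of the same library. The count was 42 in the stellate, 3 in the sphenopalatine, 3 in the lumbar and 0 in the coeliac and the pelvic ganglion. In the stellate 1 UMI is worth 19.4 CPM, so that 3 UMIs pass the floor. Its leading genes *Gm13710*, *Ebi3*, *Slc10a4*, *F8a* and *Rapsn* had 3, 3, 5, 7 and 3 UMIs, in 2, 1, 3, 3 and 2 droplets, and are not read as marks of the ganglion. In the sphenopalatine *Vip*, the peptide of its parasympathetic neurons, was at 336 CPM, *Crabp1*, which binds retinoic acid, at 141 and *Apoc1*, an apolipoprotein, at 65.0. The other glia of the same library were at 333, 286 and 61.8 CPM, so that these values lay close to or below those of the glia around them. In the lumbar *Dqx1* and the haemoglobin gene *Hbb-bt* had their UMIs in 1 droplet and *Hbb-bs* in 3. No gene passed in both pelvic libraries.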

How the data were processed

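Single-cell libraries of 6 ganglion dissections were analysed. Per the labels and the submitters' processing notes, the authors aligned reads to mm10 with Cell Ranger 6.0.1 and deposited UMI counts per gene and droplet, unnormalized, with empty droplets already removed. Droplets with more than 1500 but fewer than 11000 genes were retained if mitochondrial genes took less than 15% of UMIs. Members, lists and alternatives were chosen with earlier results of these data known. Other glia carried 0 UMIs of *Mag*, *Prx* and *Ncmap* and at least 1 UMI in 2 of *Sox10*, *Ttyh1* and *Cdh19*. Lineage droplets carried 3 markers of that lineage and fewer than 2 of these glial genes. CPM scales the summed UMIs of a class to a total of 1000000. Doublets were not removed; Scrublet marked 348 retained droplets (1.62%) and 2 members, and leaving these out was an alternative.

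Counts were summed per library and class and tested with edgeR 4.0.16 in R 4.3.3 (TMM scaling, filterByExpr, quasi-likelihood, terms for library and class), with Benjamini-Hochberg adjustment over all genes tested and a threshold of 0.05. The 10 genes that chose droplets were not tested. The procedure was tested on simulated counts, where it recovered 95 of 200 changed genes, with 3 false calls among 11295 genes. A gene that did not pass is therefore not shown to be unchanged. P-values measure the spread between 6 libraries that may share litters. Per-cell properties were compared by an exact sign-flip permutation test over libraries, two-sided. Named genes were the always-named markers, up to 5 passing genes per list and direction with the same sign in every library, up to 2 abundant genes that did not pass, and the 5 largest changes each way outside the lists; other genes appear only as members of counts. Some genes are not reported here. Alternatives were DESeq2 1.42.0, upper quartile scaling, no filter, no library term, the rule at 2000 UMIs, all 3 genes, each round, each library left out, and droplets without cycling, doublet or other-lineage marks. Counts bound precision at 51678 to 1188575 summed member UMIs per library; intervals cover counting error only. Python 3.11.15, scanpy 1.11.5 and scipy 1.17.1 were used.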

Additional observations from a re-analysis of the deposited data

Results flagged for a closer look

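Droplets above the neuronal limit, which the rule leaves out, also met the condition of 2 genes. Of 7642 such droplets, 46 carried at least 1 UMI in 2 of *Mag*, *Prx* and *Ncmap*, which is 0.602% (Wilson 95% interval 0.452% to 0.802%), with 5 in the stellate, 11 in the sphenopalatine, 7 in pelvic_1, 2 in the coeliac, 12 in the lumbar and 9 in pelvic_2. Their median was 70431 UMIs against 34921.5 over all droplets above the limit, and *Mbp* was at 172 CPM in them against 56.9 in the rest. Of the 46, 4 carried at least 2 of *Pmp2*, *Drp2*, *Gldn* and *Cldn19*, and 1 met the condition at 2000 UMIs. They drew attention because they lie outside the comparisons and 46 exceeds the 3 counts that a count of 0 allows. Whether they hold RNA of 2 cells was not tested.

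The *Ngfr* difference between myelin-gene droplets and other glia was negative in the pelvic and positive in the other ganglia, but only slightly negative in pelvic_2. It was lower in members of both pelvic libraries, at 76.7 against 139 CPM and 114 against 118 CPM, and higher in those of the other 4. On the log2 scale with 1 CPM added, the mean pelvic difference lay -1.34 from the mean of the others, and this difference was not tested. The pelvic_2 members that carried at most 1 of the 4 grading genes lay above other glia, as given above. The negative pelvic sign therefore rests mainly on pelvic_1, and no difference between ganglia is read from it.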

How the results depend on the processing

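The library served as the block of the main test. Without the replicate block, 159 genes were higher and 85 lower, against 500 and 511. The number of genes lower was 975 with no filter on low counts, 850 by the rule at 2000 UMIs, 309 without droplets with markers of another lineage and 289 in round 2. Leaving out 1 library at a time gave 373 to 514 higher and 359 to 503 lower. DESeq2 called 420 and 343. Upper quartile scaling and removal of Scrublet doublets changed neither the direction nor the call of any of 69 named genes with a fitted value. The causes of the changes below were not tested.

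Named genes that changed direction were mostly genes that did not pass the main test. By the rule at 2000 UMIs and then with all 3 genes, the log2 fold change was 0.65 and 0.67 for *Hmgcs1*, 0.82 and 0.75 for *Fdps*, 0.25 and 0.20 for *Scd2*, -0.78 and -0.53 for *Atf3*, -1.87 and -3.41 for *Ngfr*, -1.72 and -3.83 for *Scn7a*, -0.41 and -0.84 for *Erbb2*, -0.0607 and -0.15 for *Itgb1* and -0.009 and -0.27 for *Sparc*. At 2000 UMIs alone it was -0.40 for *Zfp36*, and with all 3 genes alone 0.28 for *Pou3f2* and -0.32 for *Ier3*. In round 1 it was 0.12 for *Hmgcs1*, 0.15 for *Fdps*, 0.0015 for *Gpr37l1*, -0.12 for *Ngfr* and -0.27 for *Scn7a*, and in round 2 0.0454 for *Egr1*, -0.033 for *Lamb1* and 0.18 for *Matn2*. In libraries with 10 or more members at 2 of the 4 grading genes, chosen after seeing the data like the members with 2 glial genes, it was 0.20 for *Hmgcs1*, 0.20 for *Fdps*, -0.41 for *Ngfr* and -0.10 for *Scn7a*. With 2 glial genes it was 0.0359 for *Gpr37l1* and 0.0238 for *Matn2*. Without cycling droplets it was 0.0674 for *H2afz* and 1.36 for *Top2a*. Without other-lineage droplets it was 0.0056 for *Gpr37l1*. With no filter it was -0.0708 for *Lamb1* and -0.0395 for *Erbb2*. Over the libraries left out in turn, the range was -0.0165 to 0.119 for *Lamb1* (negative without pelvic_1), -0.31 to 0.013 for *Matn2* (positive without the sphenopalatine), -0.151 to 0.0039 for *Fos* (positive without pelvic_2) and -0.0664 to 0.175 for *Erbb2* (negative without the lumbar).

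Shares in the stellate, sphenopalatine, pelvic_1, coeliac, lumbar and pelvic_2 were 0.0945%, 0.617%, 0.916%, 0.340%, 0.429% and 0.802% at 2000 UMIs (pelvic mean 0.859%), 0.0709%, 0.501%, 0.680%, 0.170%, 0.257% and 0.642% with all 3 genes (0.661%), and 0.0709%, 0.424%, 0.739%, 0.170%, 0.257% and 0.642% with 2 of the 4 grading genes (0.690%). Of all retained droplets they were 0.152% in the stellate, 0.605% in the sphenopalatine, 1.64% in pelvic_1, 1.04% in the lumbar and 3.65% in pelvic_2. Of glia they were 0.413% in the stellate, 3.30% in pelvic_1, 4.91% in the coeliac and 9.46% in pelvic_2 (pelvic mean 6.38%). Without other-lineage droplets they were 3.25% in pelvic_1 and 7.43% in pelvic_2. At 2000 UMIs the Hox gene count was 0 in the stellate, pelvic_1, lumbar and pelvic_2 and 1 in the coeliac, and without other-lineage droplets it was 4 in the stellate. The last count rests on 4 UMIs in 7 droplets, where a UMI in 1 droplet is enough to pass 10%. With all 3 genes the highest library exceeded the lowest 2.73-fold for *Mbp* and 2.86-fold for *Pmp22*. Genes marking 1 ganglion numbered 6 at 8-fold, 11 at a floor of 100 CPM and 73 with no requirement on other lineages in the stellate, 0 at 8-fold in the sphenopalatine, 1 with no such requirement in the coeliac and 1 with a UMI in 3 members in the lumbar. With all 3 genes the per-cell differences were -12.5 points for cycling, 0.0284 points for mitochondrial UMIs, -127 genes and 1.17 points for ribosomal protein UMIs, and with all UMIs members held 193 more genes. The number of members limits the stellate most, where 11 droplets gave 51678 UMIs.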
